A study of Homo sapiens with 6 samples.

Results

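The genes described here are 10 parts of the pre-B cell receptor and of the enzymes that assemble its genes: the heavy chain constant regions IGHM and IGHD, the surrogate light chain genes IGLL1 and VPREB1 with their relative VPREB3, the signalling subunits CD79A and CD79B, and the recombination enzymes RAG1, RAG2 and DNTT. They were chosen by name, as the rows of the deposited count table that carry these symbols, and all 10 were found among its 35410 genes. RNA came from SEM, an established human B cell precursor leukemia line with a proB phenotype and the KMT2A::AFF1 fusion, and was measured by MACE-Seq, which counts reads from the 3′ ends of polyadenylated transcripts. SEM::mock carried an empty vector and SEM::EGR3 a vector for overexpression of EGR3, a zinc finger transcription factor of the early growth response family. Both lines received 1 µg/mL doxycycline, the inducer of the transgene, for 48 h before RNA extraction, and each was sampled in 3 biological replicates. No uninduced library and no unmodified SEM library was used here, and whether either line was grown from a single clone is not given in the sources used here. The comparison asks how the RNA levels of these receptor genes differ between the EGR3 expressing line and its empty vector control.

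A developing B cell first joins the segments of its heavy chain gene. RAG1 and RAG2 together form the nuclease that cuts at the segment borders, DNTT (terminal deoxynucleotidyl transferase) adds bases that no template encodes, and the general end joining machinery seals the break. The finished µ heavy chain, encoded at its constant end by IGHM, reaches the surface of a large pre-B cell with a stand-in light chain made of VPREB1 and IGLL1 (λ5), and CD79A and CD79B pass the signal into the cell through their ITAM motifs. VPREB3 resembles VPREB1 and binds µ heavy chains inside the cell. IGHD, the δ constant region, lies next to IGHM in the same transcription unit and is used by alternative processing of the same long transcript, typically at the mature B cell stage.

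The promoter stretches of 5 members are printed, those whose windows held the letters CAGGTG. The windows of RAG1 and RAG2 held no CAGGTG, and their stretches are not printed. The sequences show which motif letters lie upstream of genes whose levels are given below, in a line that gained EGR3 and holds PAX5 and EBF1. The printed stretches are the bases before the annotated gene within the RefSeq window (250 bases before to 50 after the transcript start, GRCh38.p14), 5′ to 3′ on the gene's strand. A window was found for 7 of the 10 members, and none was used for IGHM, IGHD and CD79B. The stretches are chr22:23580309-23580540 on the minus strand for IGLL1, chr22:22244536-22244674 on the plus strand for VPREB1, chr22:23754469-23754675 on the minus strand for VPREB3, chr19:41877029-41877119 on the plus strand for CD79A and chr10:96304184-96304395 on the plus strand for DNTT. Capitals mark CAGGTG, an E-box that E proteins such as TCF3 can bind, and CCCNNGGG, the core recognized by EBF1, on either strand.
IGLL1: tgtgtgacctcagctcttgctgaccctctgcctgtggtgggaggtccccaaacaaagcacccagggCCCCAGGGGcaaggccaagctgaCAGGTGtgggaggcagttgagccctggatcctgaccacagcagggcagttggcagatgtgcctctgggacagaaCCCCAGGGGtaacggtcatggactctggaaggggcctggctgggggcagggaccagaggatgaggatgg
VPREB1: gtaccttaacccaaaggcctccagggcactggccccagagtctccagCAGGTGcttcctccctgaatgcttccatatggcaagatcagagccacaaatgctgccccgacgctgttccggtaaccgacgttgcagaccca
VPREB3: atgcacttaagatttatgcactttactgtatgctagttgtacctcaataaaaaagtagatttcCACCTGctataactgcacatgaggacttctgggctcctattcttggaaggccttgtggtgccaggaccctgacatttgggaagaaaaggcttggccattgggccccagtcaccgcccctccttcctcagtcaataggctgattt
CD79A: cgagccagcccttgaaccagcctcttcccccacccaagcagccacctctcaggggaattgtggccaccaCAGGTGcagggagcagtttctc
DNTT: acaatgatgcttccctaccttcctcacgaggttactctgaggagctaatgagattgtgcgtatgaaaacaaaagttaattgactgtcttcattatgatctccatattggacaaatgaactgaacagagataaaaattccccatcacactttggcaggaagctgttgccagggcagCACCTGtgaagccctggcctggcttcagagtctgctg

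The E-box letters CAGGTG were present in 5 of these 7 windows of 300 bases, at -161 from the transcript start in IGLL1, -203 in VPREB1, -187 and 6 in VPREB3, -181 in CD79A and -75 in DNTT, and in 20.6% of all 35116 RefSeq windows. The EBF letters CCCNNGGG were present in 2 windows, with overlapping matches at -184 and -183 and again at -87 and -86 in IGLL1 and 1 match at -29 in VPREB1, which lies past the printed stretch. They occurred in 19.1% of all windows. Of the sequences EGR proteins are known to bind, GTGGGCG was present in 0 of the 7 windows, against 9.52% of all windows. The related GGGGGCG was present in 1, that of RAG1 at 36, against 22.8% of all windows. The RAG2 window held none of these letters. A match describes the sequence of this window only, and no binding was measured in these libraries.

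Before the levels are read, the labels were checked against the transgene and against markers. Each SEM::mock library held few EGR3 counts (8, 10 and 6), where SEM::EGR3 held 9768, 4952 and 5557, a log2 fold change of 8.78 ± 0.11 (SE, edgeR), as the labels say. The listed genes summed to between 5286115 and 6181388 counts per SEM::mock library and to between 7293092 and 15106018 per SEM::EGR3 library. A limit of 3 counts corresponds to between 0.500 and 0.586 CPM (counts per 1000000 counts of the listed genes, TMM-normalized) in SEM::mock and to between 0.193 and 0.402 CPM in SEM::EGR3. The SEM::mock libraries stood apart from their label as proB cells. EBF1 had 0 counts in each of them, PAX5 had 1, 1 and 2, CD22 had 2, 1 and 1, and FLT3, high in KMT2A-rearranged leukemia, had 1, 0 and 4. SEM::EGR3 held 3410, 1443 and 1760 counts of PAX5 and 4998, 2285 and 2961 of FLT3. MTAP, a gene of methionine salvage named here because its pattern in these libraries was already known, was counted 380, 182 and 214 times in SEM::EGR3 but 0, 0 and 1 times in SEM::mock. All 3 SEM::mock libraries shared this pattern, so that no comparison below can be made without them, and what differs between the lines for reasons other than EGR3 cannot be told apart from what EGR3 changes. Levels in SEM::EGR3 are given on their own for this reason.

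Marker lists of other cell types moved between the lines as well, and their part in the results was not tested. Their counts of calls stand beside 36.5% higher and 32.0% lower among the 15465 genes tested (edgeR's quasi-likelihood test, adjusted p under 0.05). A gene that passed the filter on low counts through the SEM::EGR3 libraries alone could hardly be called otherwise than higher, and the number of such genes is given where there were any. The 14 B lineage markers, which include 7 of the members, summed to between 134 and 158 CPM in SEM::mock, with 10 of them at 3 counts or fewer in each SEM::mock library, and to between 521 and 548 CPM in SEM::EGR3 (9 of 10 tested higher and 1 lower, with 8 of the 10 tested through SEM::EGR3 alone). Most of the SEM::mock sum was CD24, a surface antigen shared with other cell types, at 143 ± 11.2 CPM (SD, n = 3). CD24 was the 1 B lineage marker called lower, at 23.4 ± 0.528 CPM in SEM::EGR3. The 12 proB to preB stage markers summed to between 175 and 198 CPM in SEM::mock and between 467 and 491 in SEM::EGR3. Of the 9 tested genes, 6 were called higher and 2 lower (CD24 and KIT), and 5 of the 9 were tested through SEM::EGR3 alone. The 12 myeloid markers found in the table summed to between 315 and 324 CPM in SEM::mock, with MPO, the granule enzyme, at 0 counts there, and to between 124 and 128 CPM in SEM::EGR3, with 1 of 5 tested genes higher and 3 lower. Most of the SEM::mock sum was LYZ (lysozyme), which fell from 154 ± 8.72 to 42.6 ± 1.32 CPM, and CD33, which fell from 124 ± 4.03 to 47.9 ± 2.19 CPM (SD, n = 3 libraries). The 6 erythroid and megakaryocyte markers in the table summed to between 990 and 1074 CPM in SEM::mock and to between 2588 and 2742 in SEM::EGR3, with 3 of 5 higher and 2 lower. The sum was carried by the α globin genes HBA1 and HBA2, near-identical copies that reads may not tell apart, which rose from 513 ± 25.6 to 1491 ± 35.3 CPM and from 212 ± 24.7 to 1076 ± 58.4 CPM. KLF1, an erythroid transcription factor, fell from 160 ± 5.50 to 35.7 ± 1.51 CPM (SD, n = 3 libraries), and HBB had at most 2 counts in any library. The 10 T cell markers summed to between 17.2 and 21.9 CPM in SEM::mock and between 125 and 133 in SEM::EGR3 (5 of 5 tested higher, of which 4 were tested through SEM::EGR3 alone), with CD8A at 0 in each library of both lines and the kinase LCK at 0.130 ± 0.226 against 52.0 ± 1.78 CPM. The 14 mature B and plasma cell markers went from between 70.7 and 77.2 CPM to between 198 and 204 (6 of 6 tested higher, of which 2 through SEM::EGR3 alone). Among the tested genes, TNFRSF13C rose from 1.30 to 51.2 CPM and MZB1 from 0.0587 to 36.2 CPM. FCER2 and TNFRSF17 were at 0 counts in each SEM::mock library and had at most 1 count in any SEM::EGR3 library. The 6 NK cell markers went from between 5.84 and 7.22 CPM to between 21.5 and 24.0 (1 higher and 1 lower of 2 tested). GZMB was at 0 in each SEM::mock library and at 3, 2 and 0 counts in SEM::EGR3. PRF1 (perforin), tested through SEM::EGR3 alone, was at 0.483 ± 0.132 against 18.7 ± 1.02 CPM. The 8 epithelial and fibroblast markers went from between 747 and 779 CPM to between 452 and 475 (2 higher and 3 lower of 5 tested), with COL3A1 at 0 in each library of both lines. Most of the SEM::mock sum was the keratin genes KRT8, which fell from a mean of 388 to 290 CPM, and KRT18, from 317 to 89.3 CPM. EPCAM fell from 47.1 to 15.4 CPM, while the collagen genes COL1A1 and COL1A2 rose by 3.57 and 2.93 on the log2 scale.

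In SEM::EGR3 the members spanned a wide range of levels, and in SEM::mock they were near the limit of detection. Summed over the 10 genes, SEM::mock held 12, 16 and 20 counts per library, and SEM::EGR3 4454, 2302 and 2598. As levels these sums were 2.11, 2.67 and 3.91 CPM against 286, 309 and 286 CPM. IGHM took 56.4%, 54.7% and 54.8% of the members' counts in the 3 SEM::EGR3 libraries, so the sum follows this gene. In SEM::mock, 8 of the 10 members had at most 3 counts in every library, 4 of these had 0 counts throughout, and CD79B and RAG1 alone were above that limit.

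**Figure D1:**
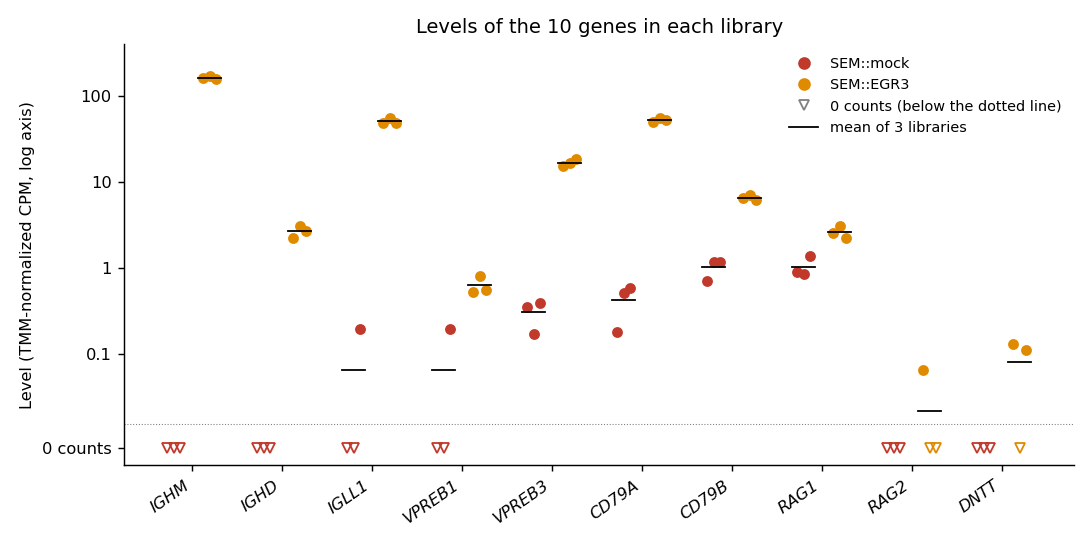
Level of each of the 10 genes in TMM-normalized CPM (logarithmic axis) in the 3 SEM::mock (red) and 3 SEM::EGR3 (orange) libraries, with open triangles for libraries at 0 counts and a line at each mean. The groups do not overlap for 8 genes, 7 of which passed the filter on low counts through SEM::EGR3 alone. RAG2 and DNTT stay at or near 0 in both lines.

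Of the 10 members, 7 passed the filter on low counts (1.48 CPM in at least 3 libraries) and were tested, and all 7 did so through the SEM::EGR3 libraries, since no SEM::mock library reached that level. A gene that enters the test in this way had to be higher in SEM::EGR3: of the 1300 genes that passed through these 3 libraries and no SEM::mock library, 99.1% were called higher. That the 7 tested members were called higher, and 0 lower (also at an unadjusted p under 0.05 in edgeR), is therefore no result about these genes as a group. Over all 15465 tested genes, 68.5% were called, with 36.5% of the tested genes higher and 32.0% lower, by edgeR's quasi-likelihood test at an adjusted p under 0.05, with a median log2 fold change of 0.03. The libraries of both lines did not overlap for 8 of the 10 members, the 7 tested ones and VPREB1, which was not tested. For the 7, passing the filter in this way already set the lines apart, so this is no result either. Among all tested genes the share without overlap was 70.1%. Because RNA was taken from whole cultures, more cells with a transcript and more transcript per cell cannot be told apart. What follows gives the size of each difference, of which the filter fixes only the direction, and the levels within SEM::EGR3. The adjusted p-values and the lack of overlap printed below for the 7 tested members carry the same limit.

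**Figure D2:**
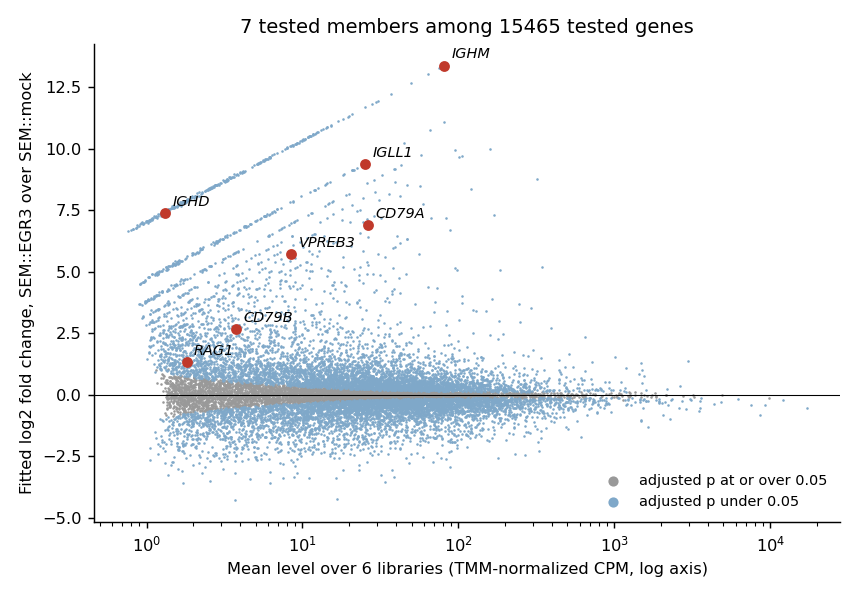
Fitted log2 fold change of SEM::EGR3 over SEM::mock against mean level (TMM-normalized CPM, logarithmic axis) for 15465 tested genes, with the 7 tested members in red. The straight upper edge holds genes with 0 counts in SEM::mock, including IGHM and IGHD, whose fitted values depend on the prior count of the fit, and RAG1 lies lowest among the members at 1.32.

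The heavy chain constant regions differed widely in level. IGHM (ENSG00000211899, chr14:105851705-105856218, minus strand, GRCh38) was not counted once in SEM::mock, while the SEM::EGR3 libraries gave 2514, 1259 and 1424 counts. As levels the latter were 161, 169 and 157 CPM, a mean of 162 ± 6.13 CPM (SD, n = 3). Every SEM::EGR3 library lay far above every SEM::mock library, and the level in SEM::EGR3 was at least 302-fold that of 3 counts per SEM::mock library (edgeR's quasi-likelihood test, Benjamini-Hochberg adjusted p = 2.05e-22). No other tested gene had a larger fitted log2 fold change, a rank that depends on how the fit treats 0 counts. The 3 SEM::EGR3 libraries varied by 3.77% around their mean, where counting alone gives 2.51%.

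IGHD (ENSG00000211898, chr14:105836765-105845678, minus strand) was also at 0 throughout SEM::mock, against 34, 23 and 24 counts in SEM::EGR3, or 2.64 ± 0.451 CPM (SD, n = 3). These libraries did not overlap either, and the difference was at least 4.90-fold (adjusted p = 1.20e-07, edgeR). Within the same SEM::EGR3 libraries there were 1.35, 1.83 and 1.69 IGHD counts for every 100 IGHM counts, a mean of 1.62 ± 0.244 (SD, n = 3; exact 95% counting interval of the pooled counts 1.24 to 1.94). The δ end was thus read rarely beside the µ end in each library. In SEM::mock the ratio has no value, since both genes were at 0.

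The constant genes downstream of IGHD, which a cell reaches by class switching, were at the limit. None of the 7 passed the filter, and 5 had 0 counts in every SEM::mock library. IGHA1 (the first α constant region) was highest, with 7, 13 and 5 counts in SEM::EGR3 and 0 in each SEM::mock library, and IGHG3 followed with 7, 2 and 7 counts. The 7 genes together made between 1.86 and 2.64 CPM in SEM::EGR3, against 162 CPM for IGHM alone. The light chain constant genes had at most 1 count in any library. IGKC had 0, 1 and 1 counts in SEM::EGR3, IGLC3 1, 0 and 0, IGLC7 0, 1 and 0, and IGLC2 0 throughout, and each had 0 in SEM::mock. These 4 of the 6 listed light chain genes were in the table, and IGLC1 and IGLL5 were not analysed here. Of the variable and joining segments, 5 rows were in the table, with at most 1 count in any library, and no other segment was analysed here.

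The surrogate light chain was uneven between its parts. IGLL1 (ENSG00000128322, chr22:23573125-23580308, minus strand), whose product takes the place of the light chain constant domain, gave 757, 405 and 433 counts in SEM::EGR3, against 0, 0 and 1 in SEM::mock. The SEM::EGR3 level was 50.2 ± 3.60 CPM (SD, n = 3), above SEM::mock in every library. The ratio of the normalized counts was 834 (exact 95% counting interval 150 to 32979), a wide interval because it rests on 1 count in SEM::mock (adjusted p = 2.27e-19, edgeR). That count lies in SEM::mock replicate 3, and without this library the fitted log2 fold change went from 9.38 to 11.8, a value against 0 counts that depends on the prior count. In the annotation, 10.6% of the 50-base words in the last 500 bases of IGLL1 transcripts also occur in other genes, among them IGLC1, IGLL5 and the pseudogene IGLL3P. How reads with several matches were counted is not given in the sources used here, so a part of the IGLL1 counts is uncertain to that extent.

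VPREB1 (ENSG00000169575, chr22:22244675-22245515, plus strand), the variable-like part of the surrogate light chain, gave 8, 6 and 5 counts in SEM::EGR3, against 0, 0 and 1 in SEM::mock. The libraries did not overlap, yet the level in SEM::EGR3 was only 0.623 ± 0.159 CPM (SD, n = 3), just above the limit of 3 counts. The ratio was 9.94 (exact 95% counting interval 1.58 to 413). VPREB1 did not pass the filter, and an exact two-sided permutation test over the 6 libraries gave p = 0.1, the smallest value that 3 against 3 allows. Without the filter, edgeR's quasi-likelihood test gave a log2 fold change of 3.03 ± 1.06 (SE, adjusted p = 0.0136), so its call depends on this choice. For every 100 IGLL1 counts there were 1.06, 1.48 and 1.15 VPREB1 counts (mean 1.23 ± 0.222, SD, n = 3; pooled interval 0.715 to 1.87). No 50-base word near the end of the VPREB1 transcripts is shared with another gene. In 3′ end counts, the partners of the surrogate light chain were therefore far from equal in each SEM::EGR3 library.

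VPREB3 (ENSG00000128218, chr22:23752743-23754468, minus strand) gave 235, 122 and 168 counts in SEM::EGR3, against 2, 1 and 2 in SEM::mock. The level was 0.303 ± 0.120 CPM in SEM::mock and 16.7 ± 1.72 CPM in SEM::EGR3 (SD, n = 3 each), without overlap. The log2 fold change was 5.72 ± 0.30 (SE, edgeR adjusted p = 1.31e-14), and the ratio of the normalized counts was 54.9 (exact 95% counting interval 23.4 to 169.9). VPREB3 stood at 31.0, 30.1 and 38.8 counts for every 100 of IGLL1, a mean of 33.3 ± 4.77 (SD, n = 3). It lay between IGLL1 and VPREB1 in each SEM::EGR3 library.

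**Figure D3:**
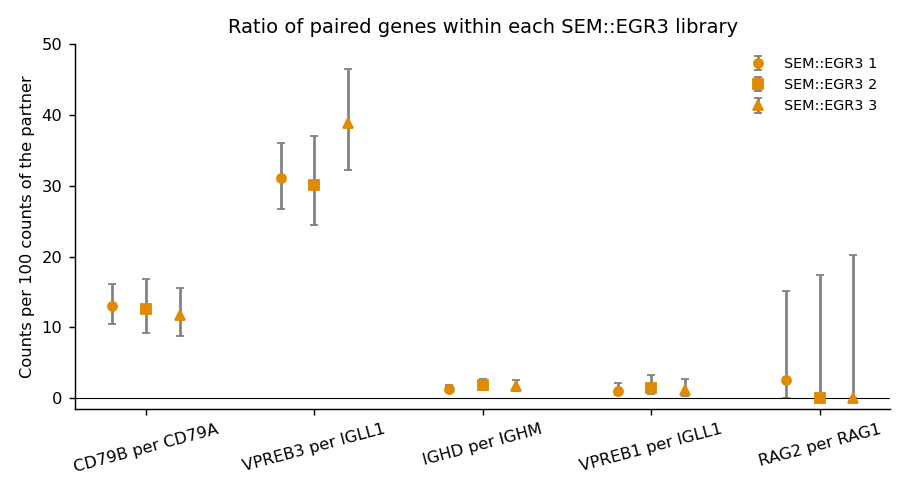
Counts of the first gene per 100 counts of the second within each SEM::EGR3 library (1 symbol per replicate), with exact 95% counting intervals as bars. CD79B and VPREB3 reach between 11.8 and 38.8 per 100, IGHD and VPREB1 stay between 1.06 and 1.83, and the RAG2 to RAG1 ratio rests on 1 count.

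Both signalling subunits rose, CD79A far more than CD79B. CD79A (Igα, ENSG00000105369, chr19:41877120-41881372, plus strand) gave 764, 412 and 468 counts in SEM::EGR3, against 1, 3 and 3 in SEM::mock. Its level went from 0.421 ± 0.216 to 52.0 ± 3.12 CPM (SD, n = 3 each) without overlap. The log2 fold change was 6.90 ± 0.20 (SE, edgeR adjusted p = 1.53e-19), and the ratio was 123 (exact 95% counting interval 59.5 to 306). DESeq2 gave a larger SE for this gene, 0.556.

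CD79B (Igβ, ENSG00000007312, chr17:63928740-63932354, minus strand) gave 100, 52 and 55 counts in SEM::EGR3, against 4, 7 and 6 in SEM::mock. Its level went from 1.01 ± 0.269 to 6.48 ± 0.464 CPM (SD, n = 3 each), again without overlap. The log2 fold change was 2.65 ± 0.28 (SE, edgeR adjusted p = 6.76e-09), and the ratio was 6.37 (exact 95% counting interval 3.88 to 11.1), an interval that lies wholly below that of CD79A. Although the proteins pair in the receptor, there were 13.1, 12.6 and 11.8 CD79B counts for every 100 CD79A counts in SEM::EGR3, a mean of 12.5 ± 0.678 (SD, n = 3; pooled interval 10.8 to 14.6). In SEM::mock the order was the other way round, with 17 CD79B and 7 CD79A counts over the 3 libraries, too few for a test of the ratio. The annotation places a readthrough transcript over 13.8% of the exon bases of CD79B on the same strand, which could take part of its reads.

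Of the recombination enzymes, RAG1 was above the limit of 3 counts in every library and its partners in none. RAG1 (ENSG00000166349, chr11:36510709-36593156, plus strand) gave 39, 23 and 20 counts in SEM::EGR3, against 5, 5 and 7 in SEM::mock. Its level went from 1.03 ± 0.295 to 2.60 ± 0.449 CPM (SD, n = 3 each), without overlap between the libraries. The log2 fold change was 1.32 ± 0.34 (SE, edgeR adjusted p = 0.00133), the smallest of the 7 tested members, and the ratio was 2.52 (exact 95% counting interval 1.48 to 4.54). RAG1 passed the filter through SEM::EGR3 alone, so its direction was set before the test. RAG1 ranked 1996 among the 15465 tested genes by fitted log2 fold change.

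RAG2 (ENSG00000175097, chr11:36575574-36598279, minus strand) was at 0 throughout SEM::mock, and SEM::EGR3 held 1, 0 and 0 counts. At 1 RAG2 count beside 82 of RAG1 in SEM::EGR3, the ratio was at most 6.99 per 100 by the exact 95% counting interval. DNTT (ENSG00000107447, chr10:96304396-96338564, plus strand) was at 0 throughout SEM::mock, and SEM::EGR3 held 2, 0 and 1 counts. For both genes the libraries overlapped, all lay at or under 3 counts, and no fold can be given. Exact two-sided permutation tests gave p = 1 for RAG2 and p = 0.4 for DNTT, and without the filter edgeR's adjusted p was 0.602 and 0.399. A difference in either gene was not detectable at this depth, where 3 counts, the limit used here, correspond to at most 0.402 CPM in an SEM::EGR3 library. RAG1 and RAG2 lie on opposite strands and share 588 exon bases in the annotation, 7.52% of those of RAG1 and 16.8% of those of RAG2. RAG2 shares a further 321 exon bases, 9.17% of its own, with IFTAP (C11orf74), also on the opposite strand. The strand setting of the counting is not given in the sources used here, so that reads in the shared stretches cannot be assigned with certainty.

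Ordered by level of 3′ end counts in SEM::EGR3, a scale on which transcript length has little influence, IGHM came first, followed by CD79A, IGLL1, VPREB3, CD79B, IGHD, RAG1, VPREB1, DNTT and RAG2. CD79A and IGLL1 overlapped in their library ranges, at a ratio of means of 1.03, and so did IGHD and RAG1 at 1.02, and DNTT and RAG2. The other steps of this order were separated in all 3 libraries. Of these, the step from IGHM to CD79A was 3.12-fold, that from IGLL1 to VPREB3 3.02-fold, that from VPREB3 to CD79B 2.57-fold, that from CD79B to IGHD 2.46-fold and that from RAG1 to VPREB1 4.17-fold. The shares of the members' counts hardly moved between replicates: CD79A took between 17.2% and 18.0%, and IGLL1 between 16.7% and 17.6%, in the 3 SEM::EGR3 libraries.

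The other genes of the recombination reaction were read from a list of 13 end joining factors and RAG cofactors, all of which were tested. By edgeR's quasi-likelihood test, 4 were higher, 5 lower and 4 not called, beside backgrounds of 36.5% and 32.0%, and their median log2 fold change was -0.08. Their summed level was between 1655 and 1709 CPM in SEM::mock and between 1858 and 1881 CPM in SEM::EGR3. The largest increases were in XRCC4, the scaffold of DNA ligase IV, with a log2 fold change of 0.90 (10.9 ± 2.88 to 20.7 ± 2.11 CPM), and in HMGB1, a DNA bending cofactor of RAG, with 0.61 (243 ± 10.1 to 371 ± 13.7 CPM). The largest decreases were in PAXX, an end joining accessory factor, with -0.75, and in DCLRE1C (Artemis), which opens the hairpin ends left by RAG, with -0.52. LIG4, the ligase itself, was measured at a log2 fold change of 0.05 ± 0.20 (SE, edgeR adjusted p = 0.843). All 13 genes were thus present in both lines, in contrast to RAG2 and DNTT.

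Below the receptor, 19 of 20 listed genes of proximal signalling were tested, with 13 higher, 6 lower and a median log2 fold change of 1.70, beside backgrounds of 36.5% and 32.0%. Of the 19, 5 were tested through SEM::EGR3 alone. Their summed level moved less, from between 842 and 865 CPM to between 1019 and 1080 CPM. BLK, a SRC kinase of B cells, went from 0 throughout SEM::mock to 325, 146 and 175 counts (at least 37.0-fold, 19.9 ± 0.854 CPM), and IRF4 and IRF8, transcription factors that act at the pre-B transition, were at least 29.8-fold and 21.3-fold higher. PTPN6, the phosphatase SHP1, rose by 7.19 on the log2 scale. LYN, another SRC kinase, fell by 1.41 and the kinase BTK by 0.80, while SYK, which docks on the phosphorylated ITAMs, fell by 0.19 (adjusted p = 0.0176, edgeR), from 61.1 ± 1.76 to 53.3 ± 2.86 CPM, a call lost in 5 of 12 refits with other tools, filters, scalings or 1 library left out (adjusted p up to 0.151 in edgeR or DESeq2). BLNK, the adaptor that couples SYK to BTK and PLCG2, was at 0 throughout SEM::mock, with 0, 1 and 0 counts in SEM::EGR3, so it was not detectable in either line.

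Of 18 transcription factors that act at receptor or recombination genes, 12 were higher, 4 lower and 2 not called, with a median log2 fold change of 0.96, beside the same backgrounds of 36.5% and 32.0%. Of the 18, 4 were tested through SEM::EGR3 alone, and with a floor of 10 counts in all libraries 7 were higher. The summed level went from between 639 and 677 to between 1510 and 1615 CPM. EBF1 went from 0 throughout SEM::mock to 2058, 925 and 1145 counts, at least 237-fold, and PAX5 rose by 9.64 on the log2 scale to 202 ± 14.7 CPM. POU2AF1, an octamer coactivator, rose by 7.87 and SPIB, an ETS factor, by 4.40. TCF3, the E protein whose letters are printed above, rose by 0.41 from 130 ± 2.86 to 173 ± 4.07 CPM. FOXO1, an activator of the RAG genes, had a log2 fold change of 0.12 ± 0.21 (SE, edgeR adjusted p = 0.629). The decreases included SPI1 (PU.1) at -1.52 and MYB at -1.04. For neither this list nor the signalling list did the median change when their genes without any SEM::mock count took the lower bound as value. It could not have changed, since these genes lie above the median at either value.

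**Figure D4:**
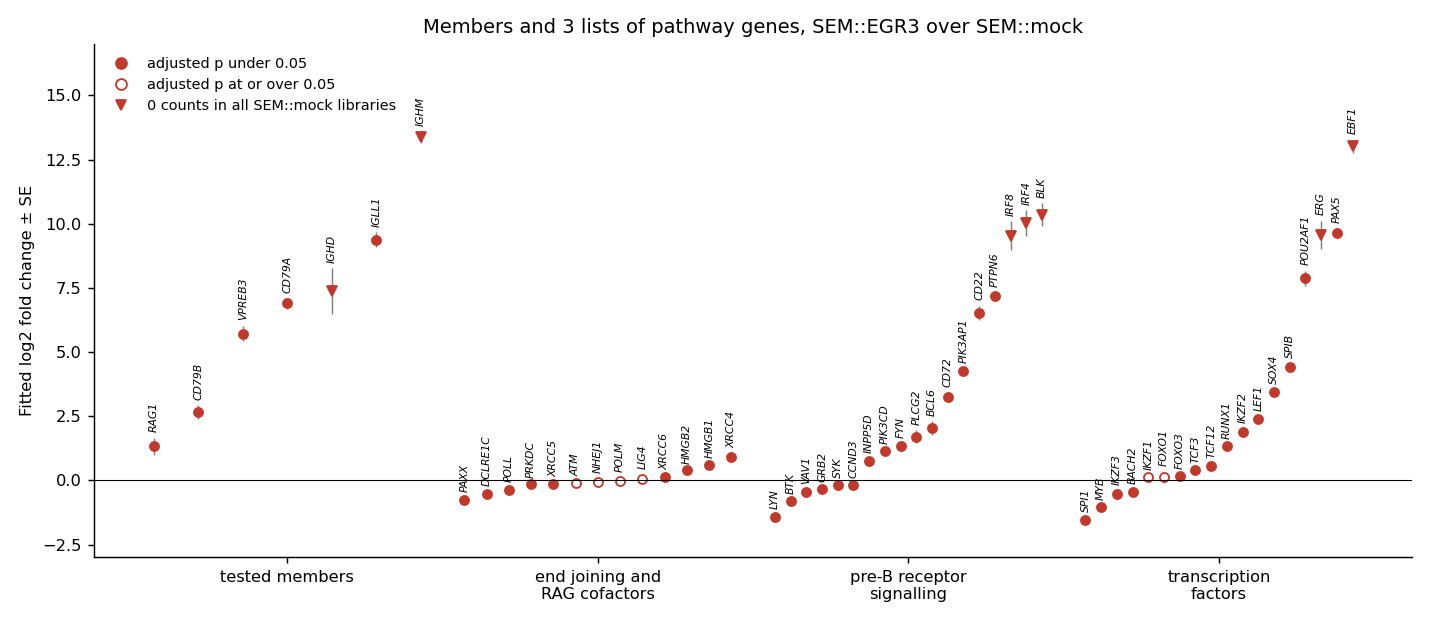
Fitted log2 fold change of SEM::EGR3 over SEM::mock with its standard error for the 7 tested members and 3 lists of pathway genes (filled, adjusted p under 0.05; triangles, 0 counts in SEM::mock, where the fitted value depends on the prior count). The standard error is derived from the F statistic of edgeR's test, and that of DESeq2 was larger for each tested member. End joining genes lie between -0.75 and 0.90, and 1 signalling gene is not drawn, while the members and parts of the signalling and transcription factor lists reach far higher values.

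T cell receptor parts, built by the same recombination enzymes in T cells, gave a mixed picture. Of 11 genes, 4 were tested, with 1 higher and 3 lower, beside backgrounds of 36.5% and 32.0%. Of the 4, 1 (CD3E) was tested through SEM::mock alone and could hardly be called otherwise than lower. TRAC (the α constant region) rose by 5.94 on the log2 scale, from 1.20 ± 0.343 to 74.4 ± 3.19 CPM, and TRBC1 (the first β constant region) fell by 4.23, from 31.8 ± 5.03 to 1.70 ± 0.152 CPM. CD3D fell by 3.25 and CD3E by 2.73, and PTCRA, the pre-T counterpart of the surrogate light chain, was near the limit at 3, 3 and 3 counts against 9, 2 and 3 in SEM::EGR3. In SEM::EGR3 the TRAC level thus exceeded those of CD79A and IGLL1.

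The nearest genes of the members, which lie on 6 chromosomes, moved in both directions. Of the 29 tested genes that lie nearest to a member, up to 2 on each side, 9 were higher, 13 lower and 7 not called. Nearness and the distances given here are between gene midpoints, so the gaps between gene ends are shorter. The shares over all tested genes were 36.5% higher and 32.0% lower. FAM30A, C22orf15 and PCAT19 were tested through SEM::EGR3 alone and could hardly be called otherwise than higher. The median log2 fold change of the 29 genes was -0.15, and 10 differed by at least 1 on the log2 scale. The closest to IGHM, the noncoding FAM30A at 71.3 kb, went from 0 throughout SEM::mock to 267, 135 and 180 counts, at least 34.1-fold (18.4 ± 1.35 CPM). On the far side of the locus, TEDC1 had a log2 fold change of 1.20 and TMEM121 of 1.83. Next to VPREB3, C22orf15 at 10.8 kb went from 0 throughout SEM::mock to 38, 17 and 24 counts (at least 4.56-fold), ZNF70 at 8.72 kb rose by 1.03 on the log2 scale, and CHCHD10 at 13.5 kb fell by 0.48. The nearest tested gene before IGLL1, the noncoding PCAT14 at 34.4 kb, fell by 3.04 from 32.5 ± 0.940 to 4.04 ± 0.487 CPM, the opposite direction to IGLL1. Beside VPREB1, TOP3BP1 at 21.2 kb fell by 0.59 on the log2 scale, AC245060.4 by 0.66 and ZNF280B by 0.91, while PPM1F-AS1 rose by 1.25. RPS19, a ribosomal protein gene 12.8 kb from CD79A, fell by 0.26 and RABAC1 by 0.35, while ARHGEF1 rose by 0.77 and PCAT19 by 2.12. Near DNTT, PIK3AP1 at 335 kb rose by 4.24 on the log2 scale, while CCNJ and ZNF518A fell by 0.69 and 0.38. Near CD79B, TCAM1P fell by 1.73 and ICAM2 by 0.34. At the RAG locus, TRAF6 had a log2 fold change of -0.30 (adjusted p = 0.0433, edgeR; lost in 10 of the same 12 refits), and IFTAP had a log2 fold change of -0.15 (adjusted p = 0.208, edgeR).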

How the data were processed

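Polyadenylated RNA was sequenced from its 3′ ends (MACE-Seq) in 3 biological replicates of each line, SEM::mock and SEM::EGR3, both treated with 1 µg/mL doxycycline for 48 h. Groups were taken from the sample titles. The column headings spell EGR3 as ERG3 and were read as the SEM::EGR3 line. The submitters' processing notes name bcl2fastq, Bowtie2, HTSeq and GRCh38. The strand setting, the treatment of reads with several matches and the annotation are not given in the sources used here.

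Whole-number counts deposited by the authors, 1 per gene and library, were used here. The authors also deposited CPM values headed TPM, size-factor normalized signal with its means, and log2 fold changes and p-values of their own DESeq2 comparison, none of which was used. No column of per-sample values was left unassigned (0).

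Testing used edgeR 4.0.16 under R 4.3.3 (filterByExpr with a minimum count of 10, TMM, glmQLFit and glmQLFTest), with Benjamini-Hochberg adjustment over 15465 tested genes and a threshold of 0.05. The procedure was first tested on simulated counts. The SE of a log2 fold change is its absolute value divided by the square root of the F statistic of edgeR's test. DESeq2 gave a larger SE for each tested member and for EGR3, such as 0.556 for CD79A, 0.669 for VPREB3 and 0.300 for EGR3. The SE printed here may therefore understate the error where SEM::mock counts are few. Levels are TMM-normalized CPM. Genes at 0 in SEM::mock are given with a lower bound at 3 counts per library, and genes with a few counts there with the ratio of pooled normalized counts and an exact 95% interval. Intervals and bounds cover counting error only, and PCR copies of a molecule may be among the reads. Positions are from GENCODE release 29, which holds 97.0% of the gene identifiers, and promoter windows from RefSeq (GRCh38.p14). The spread within each line exceeded counting noise, and p-values rest on the spread between biological replicates of 1 line each.

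The members and lists were chosen with earlier results of these data known. Named genes are the members, EGR3, up to 4 genes called higher and 4 called lower per list by the size of the fitted log2 fold change, a fixed set that includes IGKC, PTCRA, PAX5, TCF3, FOXO1, SYK and BLNK, markers at 0, and the tested genes nearest each member. Single values of a few listed genes are not reported here. MTAP, CD24, IGHA1 and IGHG3 were named after their values were seen. Alternatives were DESeq2 1.42.0, no or upper-quartile normalization factors, no filter, a floor of 10 counts in all libraries, a replicate block, omission of single libraries in turn, and a detection limit of 10 counts.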

Additional observations from a re-analysis of the deposited data

How the results depend on the processing

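The 7 tested members passed the filter through SEM::EGR3 alone, so their direction and calls could hardly change. Over 12 alternatives, their 77 recomputed log2 fold changes kept their direction and their side of the threshold. They ranged from 1.18 to 1.55 for RAG1 (edgeR or DESeq2 adjusted p up to 0.0148), 2.43 to 2.77 for CD79B, 5.41 to 5.91 for VPREB3, 6.52 to 7.16 for CD79A and 8.85 to 11.8 for IGLL1. With a floor of 10 counts in all libraries no member could be tested, and without a filter 8 were called, VPREB1 being added. The lower bound for IGHM was 90.5-fold with a limit of 10 counts per library and 318-fold without normalization factors, and that for IGHD was 1.47-fold with the limit of 10 counts.

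Several list counts moved. Under the floor of 10 counts in all libraries, which removes genes near 0 in SEM::mock, 5 signalling genes, 7 transcription factors, 3 mature B and plasma cell markers, 1 proB to preB stage marker, 1 T cell marker and 0 B lineage markers, NK cell markers and T cell receptor parts were called higher, and 3 end joining genes lower. Without normalization factors, 3 end joining genes were lower. Without a filter, which admits more genes, 3 downstream heavy chain genes and 3 myeloid markers were higher, and 6 T cell receptor parts and 5 myeloid markers lower. Over all genes, omitting normalization factors shifted the median log2 fold change by 0.0756 and gave 6282 higher and 4323 lower genes (59.2% higher, against 53.2% with TMM), and DESeq2 gave 5015 and 4376.

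The replicate numbers did not pair the samples: deviations of same-numbered libraries correlated at -0.20, -0.14 and -0.07 over 11503 genes. With the number as a replicate block, 7 members were called higher and 0 lower, and 5388 and 4694 of all genes. Low counts in SEM::mock limit the precision of each fold.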
